A study of Homo sapiens with 6 samples.

Results

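The genes described here are 48 collagens, matrix glycoproteins and mesenchymal regulators, taken as a list of names and followed in Capan-1 cells after silencing of GNE. The list was chosen with earlier results of these data known. Capan-1 is an established human pancreatic carcinoma line, and GNE encodes the enzyme that starts sialic acid synthesis. Each of the 48 genes had at least 1 Affymetrix probe set assigned to it alone, out of 19775 genes with such a probe set. The probe set with the highest mean over the arrays was used for each gene. A gene was tested where that mean was above 4 on the log2 scale, which held for 25 of the 48 and for 10733 genes in all. The other 23 read between 2.10 and 3.44 on every array and are listed as near background. Nearest to the limit were COL4A2 and VIM above it, with means of 4.22 and 4.33, and EFEMP2 and COL3A1 below it, with 3.28 and 3.04.

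There were 3 arrays of cells transfected with siRNA against GNE (siGNE) and 3 arrays of cells transfected with a control siRNA, called allStar in the labels. Cells of both groups received 2 transfections with 48 h between them, and RNA was taken 72 h later. Titles number the arrays 1 to 3 in each group, and those with equal numbers form a pair below. The number of different GNE siRNAs and the origin of replicate arrays (separate cultures or not) are not stated, so p-values reflect a spread that may be technical. Each array holds RNA of a whole culture of 1 cell line, in which fewer cells of a kind and less RNA per cell cannot be told apart.

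The extracellular matrix is a network of fibrillar collagens, sheet-like basement membranes, elastic microfibrils and glycoproteins that connect them to cell receptors. In pancreatic tumours most fibrillar collagen is made by fibroblasts and stellate cells, while carcinoma cells contribute basement membrane chains and matricellular proteins. Transcription factors of the ZEB, SNAI and TWIST families repress epithelial genes during epithelial-mesenchymal transition, a programme in which cells gain vimentin, N-cadherin and fibronectin.

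GNE itself read 8.39, 9.86 and 9.57 on the siGNE arrays of pairs 1 to 3, against 11.12, 11.47 and 10.86 on the control arrays, and fell by 1.88 (SE 0.29, limma adjusted p 0.0348 with the pair as a block and 0.131 without it). Array medians over all probe sets lay between 2.96 and 3.02, so values near 3 are close to background. All 10 markers of ductal epithelium, among them KRT19 and EPCAM, had means above 4, and 1 of them, the cell adhesion gene CEACAM5, rose by 0.56 (SE 0.11, limma adjusted p 0.0491 with the block and 0.423 without it). The log2 of their summed signal ran from 17.40 to 17.58 on siGNE arrays and from 17.29 to 17.42 on control arrays. Of 8 fibroblast and stellate markers, 7, including PDGFRA, PDGFRB and FAP, stayed at or below 3.21 on every array, and so did all 5 endothelial markers, at or below 3.0. The exception was the smooth muscle actin gene ACTA2, with a mean of 7.91, which fell by 0.52 (SE 0.09, limma adjusted p 0.0422 with the block and 0.420 without it). With ACTA2 in it, the log2 of the summed fibroblast and stellate signal ran from 7.60 to 8.19 on siGNE arrays and from 8.06 to 8.57 on control arrays, and its part in the results below was not tested. Of 5 measured leukocyte markers, 4 stayed at or below 3.44. The lysozyme gene LYZ was strongly detected, with a mean of 11.08 over the 6 arrays, and differed by 0.03.

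Of the 25 tested genes, 6 fell after GNE siRNA and 1 rose, judged by limma with the pair as a block. The 6 were EFEMP1, COL12A1, TGFBI, TNC, COL6A1 and COL4A5, and the 1 was COL1A1. The 6 make up 24.0% of the tested list, where 5.79% of all tested genes fell, and the 1 makes up 4.0%, where 4.11% of all tested genes rose and 9.89% were called in either direction. Over 22085 probe sets the shares were 5.35% lower, 4.13% higher and 9.49% in either direction. The log2 difference was below 0 for 21 of the 25, with a median of -0.38 beside -0.02 for all tested genes. All 3 pairs were lower for 14 of the 25 (56.0%), as for 30.9% of all tested genes. The siGNE values lay entirely below the control values for 8 of the 25 (32.0%), against a background of 13.9%, and entirely above them for 1, against 9.42%. Because the list was chosen with earlier results of these data known, these shares describe it and cannot test whether such genes fall more often.

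The calls rest on the pairing and on the limit for testing. Without the block 0 of the 25 passed in limma (adjusted p 0.0603 for EFEMP1 and 0.102 to 0.635 for the other 6), 7 had an unadjusted p under 0.05, as did 16.3% of all tested genes, and 0.028% of all tested genes and 0.0408% of probe sets passed. With no limit on the mean, 0 of the 48 passed with the block and 11 had an unadjusted p under 0.05, as did 13.1% of all probe sets. Dropping pair 1, 2 or 3 altogether also left 0 calls, with 13, 14 and 11 of the 25 at an unadjusted p under 0.05, beside 25%, 22.7% and 22.8% of probe sets.

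**Figure D1:**
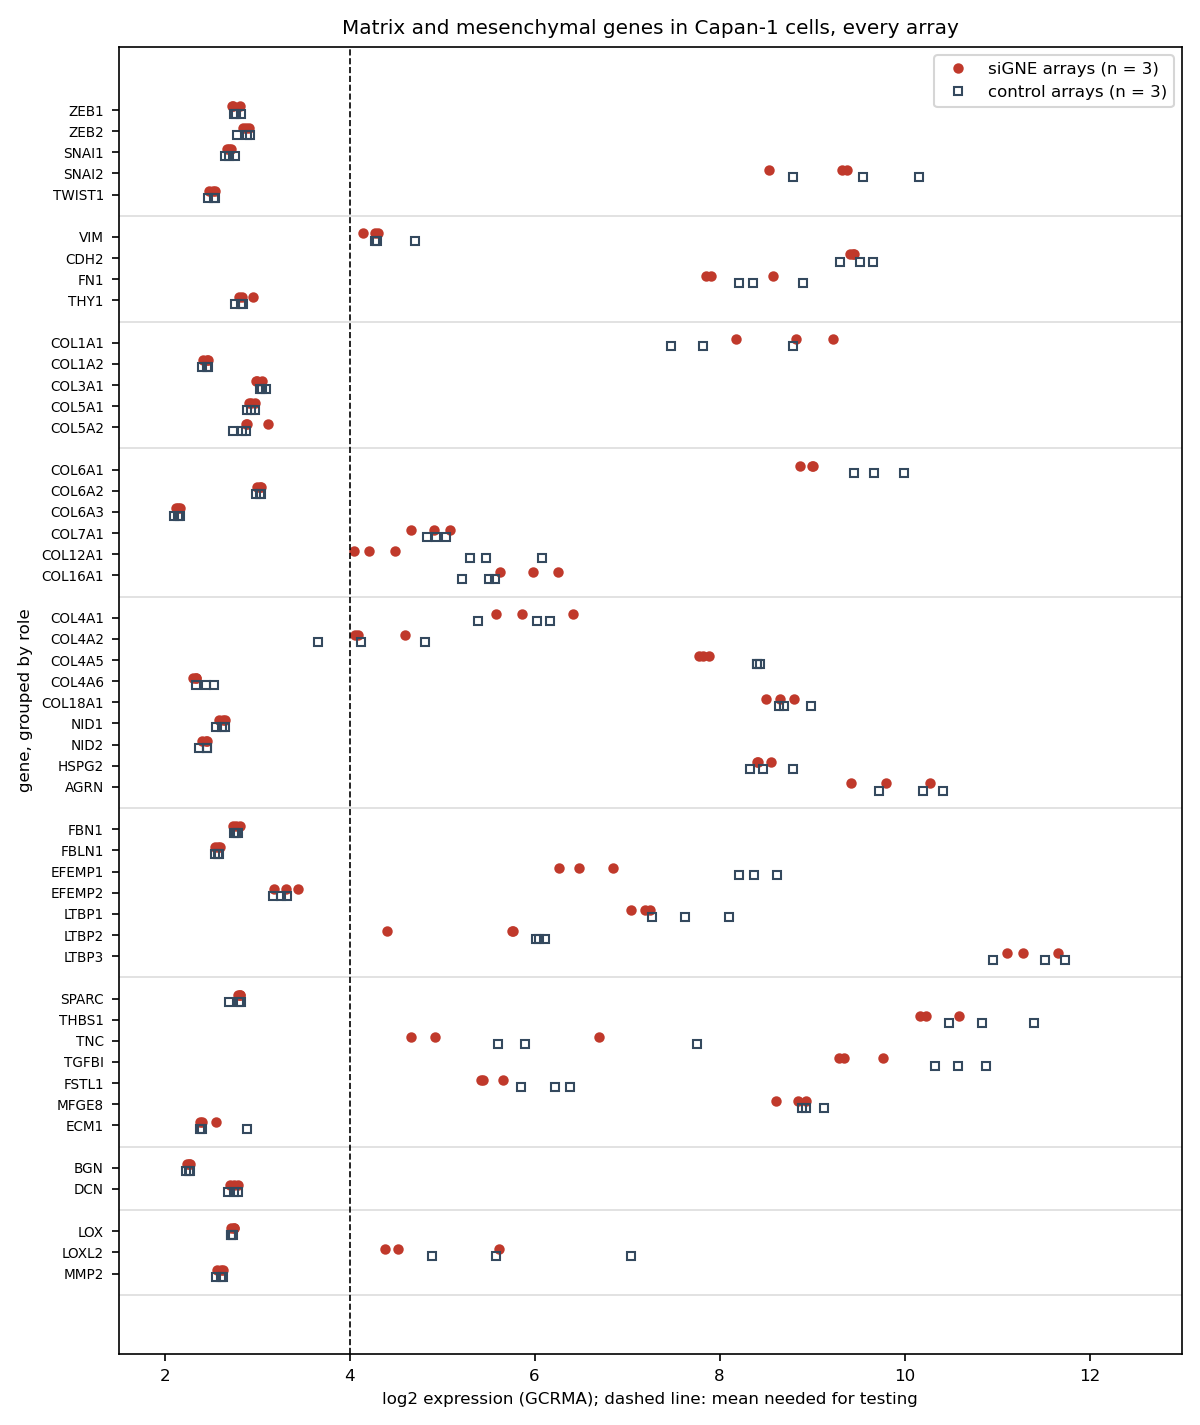
Log2 expression of all 48 genes on each of the 3 siGNE arrays (filled circles) and 3 control arrays (open squares), grouped by role, with the limit of 4 for testing as a dashed line. The 23 genes with means below the limit lie between 2.10 and 3.44 on every array, and EFEMP1, COL12A1, TGFBI, COL6A1 and COL4A5 show siGNE values clear of the control values.

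Among the 5 mesenchymal transcription factors of the list, SNAI2 alone was above background. ZEB1, ZEB2, SNAI1 and TWIST1 had means of 2.77, 2.87, 2.70 and 2.51 over the 6 arrays and differed by at most 0.03 between the groups. SNAI2, also called Slug, a repressor of E-cadherin, read 9.33, 9.37 and 8.53 on the siGNE arrays of pairs 1 to 3, against 10.16, 9.55 and 8.80 on the control arrays. It was lower in all 3 pairs, but the groups overlapped and the step was uneven over the pairs, at -0.83, -0.18 and -0.27. The mean difference of -0.43 (SE 0.15) did not pass (limma adjusted p 0.141). With a single array dropped, and the block with it, the difference was -0.15 (siGNE array 3), -0.098 (control array 1) or -0.78 (control array 3). Levels of the pairs enter such differences.

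The 3 tested mesenchymal markers of the list, CDH2, VIM and FN1, showed no called change. CDH2, which encodes N-cadherin, read 9.45, 9.45 and 9.41 in siGNE cells, against 9.51, 9.65 and 9.30 in control cells. The siGNE values lay inside the control range, and the difference of -0.05 had a 95% interval from -0.31 to 0.20. VIM, the intermediate filament gene vimentin, read 4.30, 4.15 and 4.27 in siGNE cells and 4.70, 4.30 and 4.27 in control cells. These values are so close to the limit of 4 that a change could be lost, and pair 3 showed a difference of 0.00.

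FN1, fibronectin, read 8.58, 7.91 and 7.85 in siGNE cells, against 8.91, 8.36 and 8.20 in control cells. Pair 1 was the highest in both groups, so the groups overlapped although every pair was lower, at -0.33, -0.45 and -0.36. The difference of -0.38 (SE 0.08) missed the threshold (limma adjusted p 0.0587) and passed among probe sets with a mean above 6 (0.0369). Dropping 1 array, and the block with it, took it from -0.61 (siGNE array 1 dropped) to -0.17 (control array 1 dropped). The other 3 tested FN1 probe sets, all prone to cross-hybridisation, differed by -0.15, -0.13 and -0.48 and were not called. THY1, a surface glycoprotein of fibroblasts, was near background with a mean of 2.84.

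COL1A1 was the only one of 5 fibrillar collagen genes above background, and it rose. The probe set used (1556499_s_at) read 8.82, 9.22 and 8.18 in siGNE cells of pairs 1 to 3 and 7.82, 8.80 and 7.47 in control cells. Each pair was higher, by 1.0, 0.42 and 0.70, yet the groups overlapped because pair 2 was the highest and pair 3 the lowest in both. The difference was 0.71 (SE 0.13, limma adjusted p 0.0441), a 1.63-fold rise. A second probe set (202310_s_at) rose by 0.52 (SE 0.09, limma adjusted p 0.0384), and another, prone to cross-hybridisation, differed by 0.22 (limma adjusted p 0.290). The remaining COL1A1 probe sets, 202311_s_at and 202312_s_at, had means of 3.38 and 2.58, under the limit for testing, with differences of 0.08 and -0.05. When a single array was dropped and the block with it, the COL1A1 difference became 0.47 (siGNE array 2 dropped), 1.09 (control array 2 dropped) or 0.43 (control array 3 dropped). COL1A2, whose chain joins that of COL1A1 in the type I collagen trimer, had a mean of 2.45 and a difference of 0.00, and COL3A1, COL5A1 and COL5A2 had means of 3.04, 2.94 and 2.89.

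COL12A1 and COL6A1 fell among the remaining interstitial collagens. COL12A1 encodes a collagen that binds the surface of fibrils, and its probe set (225664_at) read 4.21, 4.49 and 4.04 in siGNE cells, against 5.30, 6.08 and 5.47 in control cells. The groups were separate, with the siGNE values just above the limit for testing, so the size of the fall is uncertain. The difference was -1.37 (SE 0.12, limma adjusted p 0.0237), which leaves 38.8% of the control level. The call rests on this probe set alone. The others, 233109_at, 231879_at, 234951_s_at and 231766_s_at, had means of 2.69, 2.61, 2.44 and 2.44, under the limit for testing. They differed by 0.01, -0.11, 0.01 and -0.20.

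COL6A1 encodes a chain of the type VI collagen microfibrils that surround cells. Its probe set (213428_s_at) read 9.01, 8.87 and 9.0 in siGNE cells, against 9.99, 9.67 and 9.45 in control cells. The siGNE arrays lay within 0.13 of each other and below every control array, and the difference was -0.74 (SE 0.13, limma adjusted p 0.0409). Its other 2 tested probe sets differed by -0.59 and -0.46 and did not pass (limma adjusted p 0.0867 and 0.266). Of those under the limit for testing, 212938_at and 212940_at had the highest means, 3.90 and 3.72, and differed by 0.16 and -0.29. The partner chains COL6A2 and COL6A3 were near background at means of 3.02 and 2.14.

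COL16A1, another fibril-associated collagen, read 5.99, 6.25 and 5.62 in siGNE cells, against 5.57, 5.51 and 5.22 in control cells. It was the one tested gene of the list with every siGNE value above every control value, but its difference of 0.52 (SE 0.11) stood just outside the threshold (limma adjusted p 0.0513). It passed after quantile normalization and after centring each array on its median (limma adjusted p 0.0361 and 0.0351). COL7A1, the collagen of anchoring fibrils, differed by -0.05 with a 95% interval from -0.32 to 0.23.

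**Figure D2:**
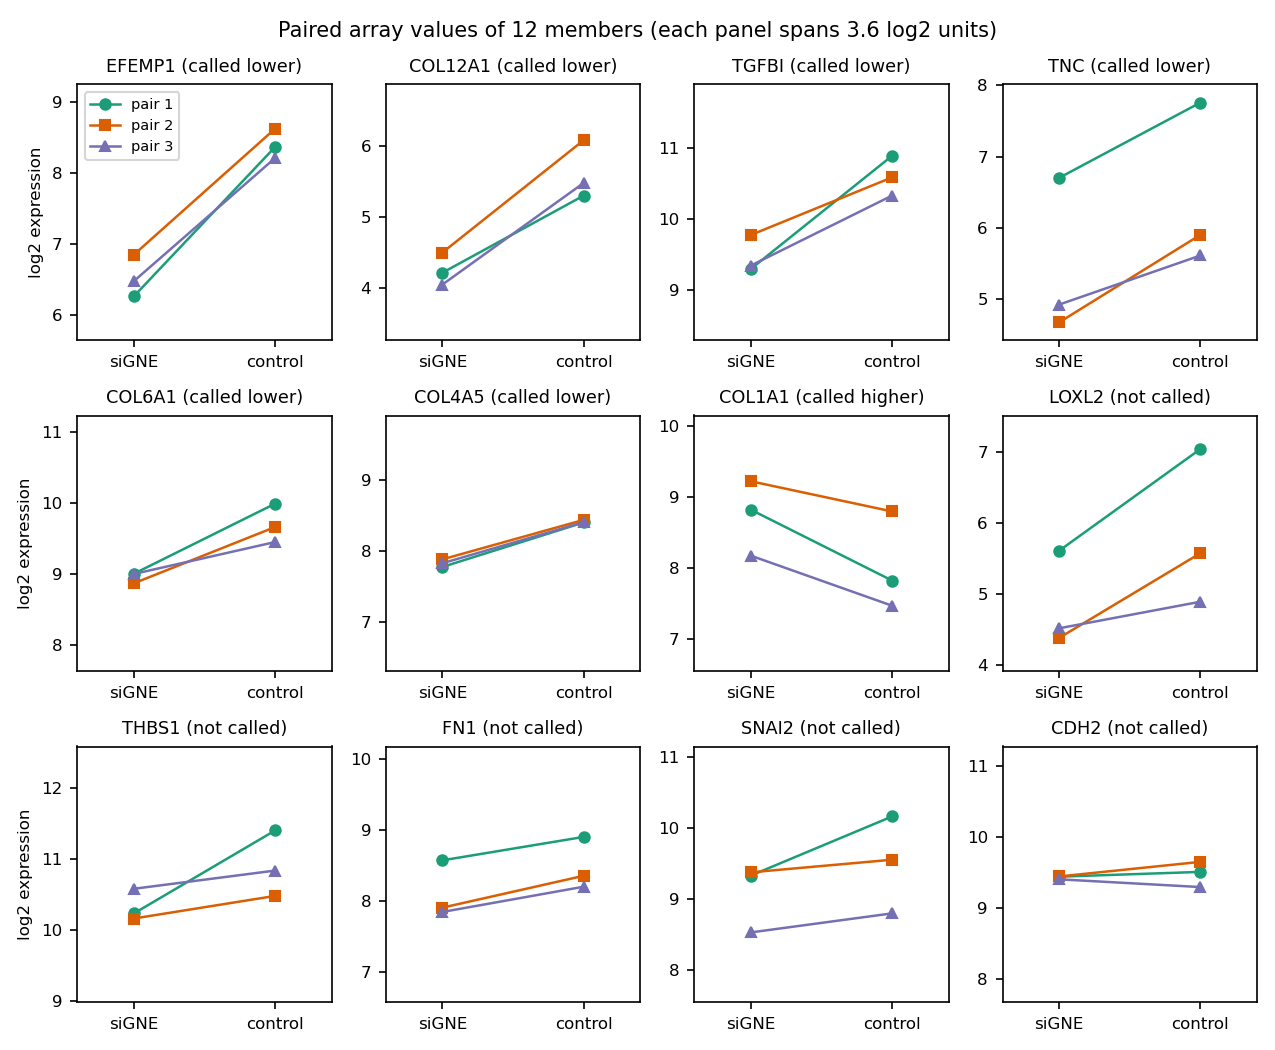
Log2 expression of 12 of the genes in siGNE and control cells, with a line for each of the 3 pairs and 3.6 log2 units in every panel. COL4A5 shows 3 nearly coincident lines, TNC and LOXL2 show pair 1 far above the other pairs in both groups, and COL1A1 slopes the opposite way in all 3 pairs.

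Of 9 basement membrane genes, 6 were tested and COL4A5 alone fell (16.7%, beside 5.79% of all tested genes). COL4A5 encodes a type IV collagen chain that is mutated in Alport syndrome. Its probe set (213110_s_at) read 7.77, 7.88 and 7.82 in siGNE cells, against 8.40, 8.44 and 8.40 in control cells. The control values spanned 0.04 and the siGNE values 0.11, both far less than the difference of -0.59 (SE 0.08, limma adjusted p 0.0305), and the pairs stood at -0.63, -0.56 and -0.58. Another COL4A5 probe set (234387_at) was under the limit for testing, with a mean of 2.32 and a difference of -0.01.

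The type IV chains of most basement membranes, COL4A1 and COL4A2, showed no called change. COL4A1 read 5.58, 6.41 and 5.87 in siGNE cells and 5.38, 6.17 and 6.02 in control cells. COL4A2 read 4.60, 4.09 and 4.06 in siGNE cells and 4.13, 4.82 and 3.66 in control cells. Both sets of values overlapped, with differences of 0.10 (95% interval -0.20 to 0.39) and 0.05 (95% interval -0.63 to 0.73), so a COL4A2 change the size of that of COL4A5 lies inside its interval. The sign of both depends on which array is left out, and that of COL4A2 is also negative (-0.07) with values under 4 set to 4.

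The perlecan gene HSPG2 (-0.07, 95% interval -0.34 to 0.19), COL18A1, the source of endostatin (-0.12, -0.36 to 0.12), and the agrin gene AGRN (-0.28, -0.76 to 0.19) did not pass. A second COL18A1 probe set differed by -0.34 (limma adjusted p 0.0682). COL4A6 and the nidogen genes NID1 and NID2, which link laminin to type IV collagen, were near background at means of 2.38, 2.62 and 2.43.

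Type IV collagen genes lie in head-to-head pairs, and the RefSeq start sites on GRCh38.p14 show how close the partners are. COL4A5 and COL4A6 start 380 bases apart on opposite strands of chromosome X, and their promoter windows share 121 bases. COL4A2 and COL4A1 start 127 bases apart on chromosome 13, with 226 bases shared. The window is 250 bases before to 50 after the start, and it was in the RefSeq table for 34 of the 48 genes, among them 4 of the 7 that were called. Those 4 windows are shown because their genes were called, each of them lower, with capitals for the GC box GGGCGG on either strand:
COL4A5: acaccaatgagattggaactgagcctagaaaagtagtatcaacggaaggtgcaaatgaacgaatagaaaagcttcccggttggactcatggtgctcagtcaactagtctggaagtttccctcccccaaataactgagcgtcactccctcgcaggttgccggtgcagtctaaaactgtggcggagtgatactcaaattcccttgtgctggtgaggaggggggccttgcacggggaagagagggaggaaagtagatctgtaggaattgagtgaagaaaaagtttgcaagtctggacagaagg
COL12A1: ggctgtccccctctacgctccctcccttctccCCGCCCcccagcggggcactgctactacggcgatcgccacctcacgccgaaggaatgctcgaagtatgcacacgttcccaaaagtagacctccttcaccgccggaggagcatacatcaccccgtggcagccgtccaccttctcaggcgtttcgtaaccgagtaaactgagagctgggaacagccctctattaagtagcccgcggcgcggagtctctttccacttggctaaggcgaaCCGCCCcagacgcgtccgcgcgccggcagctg
TNC: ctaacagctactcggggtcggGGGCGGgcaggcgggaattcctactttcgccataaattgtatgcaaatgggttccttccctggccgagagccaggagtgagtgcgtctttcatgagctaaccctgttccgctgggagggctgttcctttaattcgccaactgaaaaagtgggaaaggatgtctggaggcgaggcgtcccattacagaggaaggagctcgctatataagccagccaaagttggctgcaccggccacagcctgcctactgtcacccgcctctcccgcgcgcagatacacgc
TGFBI: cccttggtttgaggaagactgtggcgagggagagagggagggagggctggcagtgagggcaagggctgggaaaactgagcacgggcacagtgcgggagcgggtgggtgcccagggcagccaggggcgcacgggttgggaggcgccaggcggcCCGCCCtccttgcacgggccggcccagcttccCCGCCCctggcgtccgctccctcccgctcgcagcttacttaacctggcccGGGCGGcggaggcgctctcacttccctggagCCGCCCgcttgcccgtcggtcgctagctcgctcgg
They were read 5′ to 3′ on the gene's strand from chrX:108439588-108439887 (plus), chr6:75206004-75206303 (minus), chr9:115118108-115118407 (minus) and chr5:136028738-136029037 (plus). Counted from the start site, GC boxes began at -98, -66, -16 and 16 in TGFBI, at -218 and 19 in COL12A1 and at -229 in TNC, and no match was in the COL4A5 window. Of the 34 windows 27 held a GC box, while 45% of 35116 RefSeq windows of the same length did. A GC box was in 17 of 19 windows of tested genes and in 3 of the 4 shown. The GC content of the 34 windows ran from 43.7% (COL4A6) to 86.7% (COL18A1), and its part in these shares was not tested. The letters CACCTG, the E-box that ZEB and SNAI factors recognise, were searched on both strands too. They were in 3 of the 34 windows (ZEB1, COL16A1 and LTBP3), in 0 of the 4 shown, and in 20.6% of all windows. Overlapping matches were counted, and a match is not a measured binding site.

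EFEMP1 had the most negative difference of the 25 tested genes and fell. It encodes a fibulin-family glycoprotein of elastic and other matrices. The probe set used (201842_s_at) read 6.27, 6.85 and 6.48 in siGNE cells, against 8.37, 8.62 and 8.21 in control cells. More than 1 log2 unit separated the groups, and the pairs stood at -2.10, -1.77 and -1.73. The difference was -1.87 (SE 0.11, limma adjusted p 0.0153), leaving 27.4% of the control level. A second EFEMP1 probe set (201843_s_at), with a mean of 3.56, was outside the test because of its low mean. It read 2.55, 2.56 and 2.60 in siGNE cells, which is background, against 5.09, 4.53 and 4.02 in control cells. EFEMP2, FBN1 and FBLN1, other genes of elastic fibres and microfibrils, were near background at means of 3.28, 2.77 and 2.57.

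None of the latent TGF-beta binding proteins passed. LTBP1, which tethers latent TGF-beta to the matrix, read 7.25, 7.04 and 7.19 in siGNE cells, against 7.62, 7.26 and 8.10 in control cells. The groups only just failed to overlap, and the difference of -0.51 (SE 0.16) had a limma adjusted p of 0.105. With control array 3 dropped, and no block, it was -0.28. A second LTBP1 probe set differed by -0.08 (limma adjusted p 0.715), with pair 2 higher. LTBP2 read 5.76, 5.76 and 4.41 in siGNE cells, against 6.05, 6.11 and 6.01 in control cells. The low value of the siGNE array of pair 3 weighs on its difference of -0.75 (limma adjusted p 0.154), which was -0.32 without pair 3. A second LTBP2 probe set differed by -0.63 (limma adjusted p 0.0617), and the average of both passed (limma adjusted p 0.0338). LTBP3 differed by -0.06 (95% interval -0.47 to 0.36), with pairs of both signs.

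All 5 tested matricellular and other glycoprotein genes were lower in all 3 pairs, as were 30.9% of all tested genes. TGFBI and TNC passed, 40.0% of the 5, where 5.79% of all tested genes fell. These shares describe a few genes of a list chosen with earlier results known. TGFBI encodes a secreted, integrin-binding protein that TGF-beta induces. Its probe set (201506_at) read 9.29, 9.77 and 9.34 in siGNE cells, against 10.89, 10.58 and 10.33 in control cells. The groups were separate, with the largest step in pair 1 (-1.59, against -0.81 and -0.99 in pairs 2 and 3), and the difference was -1.13 (SE 0.17, limma adjusted p 0.0343).

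TNC, tenascin-C, a glycoprotein of remodelling and tumour matrix, read 6.70, 4.67 and 4.92 in siGNE cells of pairs 1 to 3, against 7.76, 5.90 and 5.61 in control cells. Pair 1 stood about as far above the other pairs in siGNE cells as in control cells, and the control range of 2.15 exceeded the effect. The groups therefore overlapped, while the pairs stood at -1.06, -1.23 and -0.69. The difference was -0.99 (SE 0.13, limma adjusted p 0.0285), and it did not pass without the block (SE 0.75, limma adjusted p 0.635). When a single array was dropped and the block with it, the TNC difference became -1.63 (siGNE array 1 dropped), -0.61 (siGNE array 2 dropped) or -0.33 (control array 1 dropped). The other TNC probe sets, 216005_at and 237169_at, had means of 2.39 and 2.35, under the limit for testing. They differed by 0.002 and 0.004.

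THBS1, thrombospondin, an activator of latent TGF-beta, read 10.24, 10.17 and 10.58 in siGNE cells, against 11.40, 10.48 and 10.84 in control cells. The groups overlapped and pair 1 stood at -1.17, against -0.32 and -0.26 in pairs 2 and 3. Its difference of -0.58 (SE 0.21, limma adjusted p 0.135) was -0.29 without pair 1. All 4 tested THBS1 probe sets were below 0 and none passed, with -0.83 the most negative (limma adjusted p 0.0546), although the average of the 4 did (limma adjusted p 0.0404).

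FSTL1, a secreted relative of SPARC, read 5.45, 5.65 and 5.42 in siGNE cells, against 6.22, 5.85 and 6.38 in control cells. The groups were separate, but the difference of -0.64 (SE 0.17) did not pass (limma adjusted p 0.0772). MFGE8, a phosphatidylserine-binding glycoprotein, differed by -0.19 (95% interval -0.43 to 0.06). SPARC and ECM1 were near background at means of 2.79 and 2.50, as were the small proteoglycan genes BGN and DCN at 2.26 and 2.74.

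Of the crosslinking and matrix-degrading enzymes, LOX and the gelatinase gene MMP2 were near background at means of 2.73 and 2.60. LOXL2, a lysyl oxidase family enzyme that crosslinks collagen, read 5.61, 4.38 and 4.52 in siGNE cells, against 7.04, 5.58 and 4.89 in control cells. As for TNC, pair 1 was the highest in both groups and the groups overlapped. The difference of -1.0 (SE 0.22) missed the threshold (limma adjusted p 0.0576). It passed after quantile normalization, median centring or with a trended variance prior (limma adjusted p 0.0438, 0.0443 and 0.0423). Dropping 1 array, and the block with it, took it from -1.47 (control array 3 dropped) to -0.40 (control array 1 dropped).

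**Figure D3:**
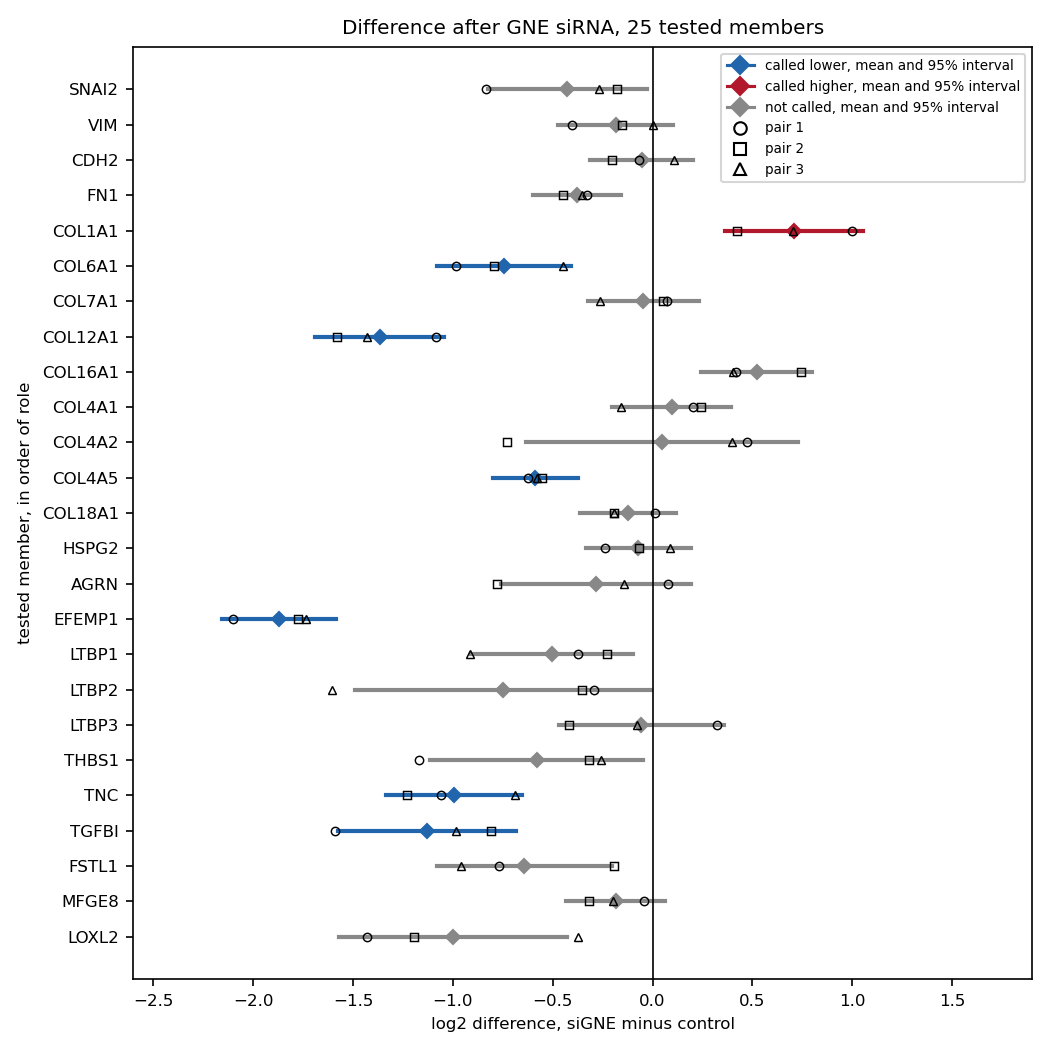
Log2 difference, siGNE minus control, of the 25 tested genes in order of role, with the mean (diamond), its 95% interval from limma with the pair as a block (bar) and the 3 pairs (open symbols). The 6 genes that fell range from -1.87 for EFEMP1 to -0.59 for COL4A5, COL1A1 stands at 0.71, and LTBP2 has pair 3 far from the other pairs.

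**Figure D4:**
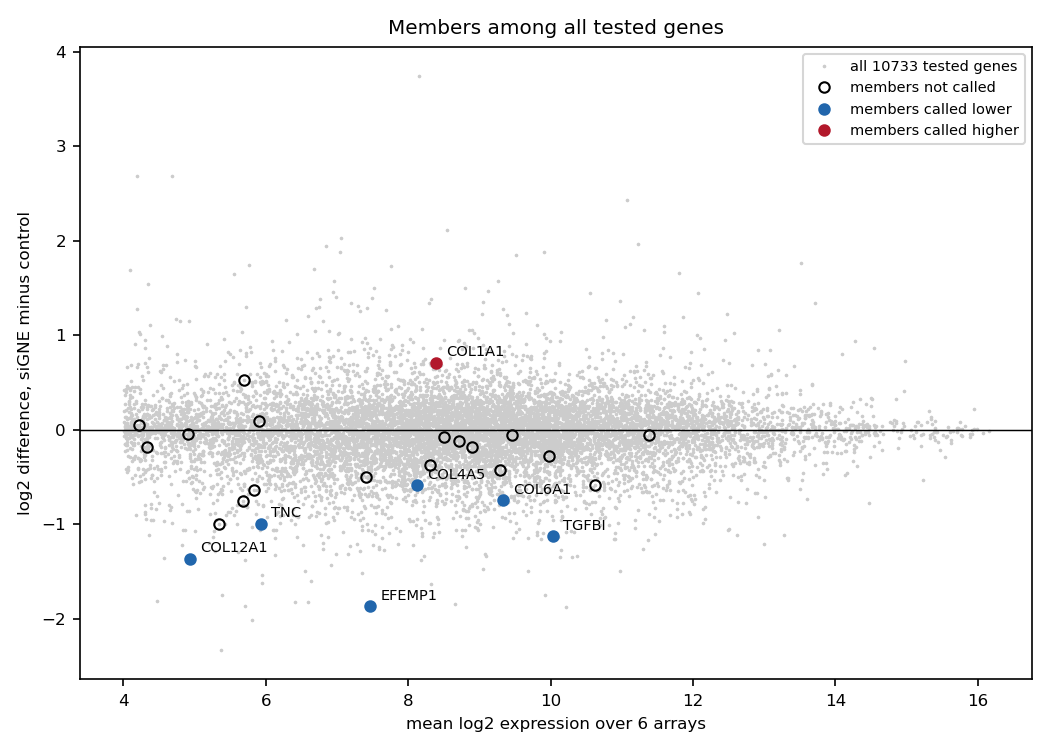
Log2 difference, siGNE minus control, against the mean log2 expression over 6 arrays for 10733 tested genes (grey), with the 25 listed genes marked by call. EFEMP1 at -1.87 lies near the lower edge of all tested genes, whose most negative difference was -2.34.

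Different probe sets of the same gene mostly shared a sign. For 10 genes there were 16 further tested probe sets, and 15 of these had the sign of the one used. The exception was CDH2, at 0.02 against -0.05 for the probe set used. Of the 16, 1 was called, a COL1A1 probe set, beside 9.49% of all tested probe sets.

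**Figure D5:**
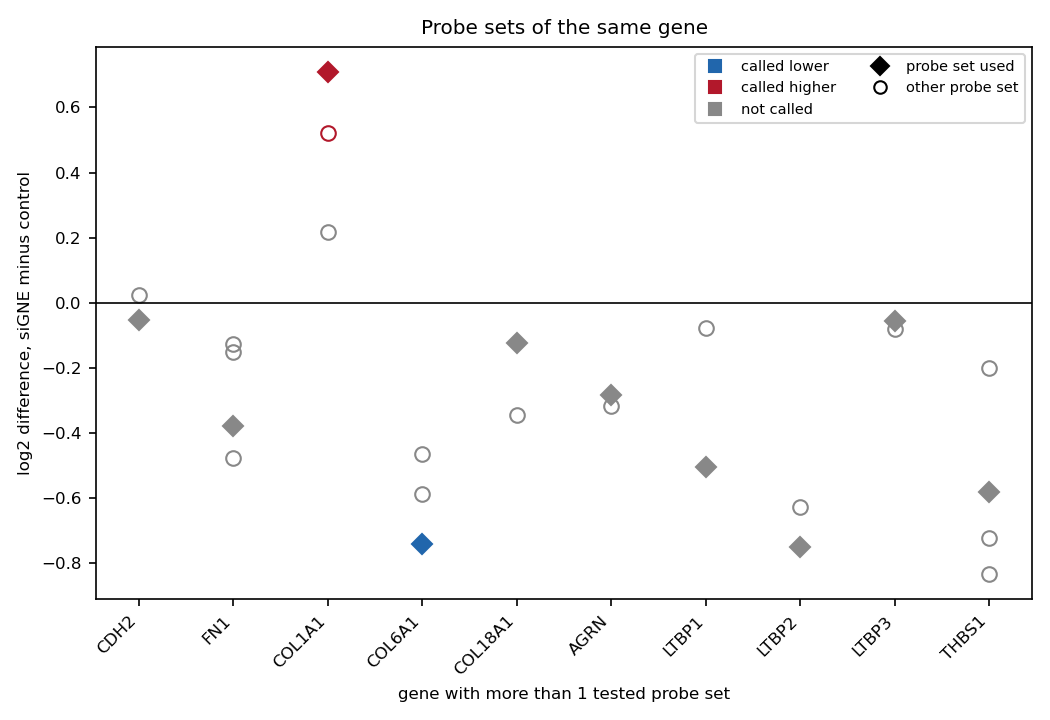
Log2 difference, siGNE minus control, of each tested probe set for the 10 genes with more than 1, with the probe set used as a filled diamond and the others as open circles. The 3 COL1A1 probe sets lie above 0, and those of FN1, COL6A1, COL18A1, AGRN, LTBP1, LTBP2, LTBP3 and THBS1 all lie below it.

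A further 155 matrix and mesenchymal genes in 5 lists give the rest of the pathway, and 76 of them were tested. These lists too were chosen with earlier results of these data known. Of the 76, 9 fell (11.8%, beside 5.79% of all tested genes) and 6 rose (7.89%, beside 4.11%), with a median difference of -0.04. Without the block 0 passed in limma and 17 had an unadjusted p under 0.05, as did 16.3% of all tested genes.

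Enzymes that fold, modify and export collagen held 3 rises (15.0%, beside 4.11% of all tested genes) and 0 falls (beside 5.79%) among 20 tested genes. Their median difference was 0.08, and so few calls in a list chosen with earlier results known only describe it. The prolyl isomerase gene FKBP14 rose by 0.56, CTAGE5 (MIA2 in RefSeq), a cargo receptor component of collagen export, by 0.52 and PCOLCE2, an enhancer of procollagen cleavage, by 0.58 (limma adjusted p 0.0343, 0.0444 and 0.0473). The lysyl hydroxylase PLOD3 differed by 0.43 (limma adjusted p 0.0586). Among 5 other tested collagens, the transmembrane collagen gene COL13A1 fell to 8.31 ± 0.39 in siGNE cells, against 9.79 ± 0.22 in control cells (SD, n = 3 each), a difference of -1.48 (SE 0.23, limma adjusted p 0.0354). COL27A1 (0.27), COL9A3 (-0.13) and COL9A2 (-0.31) did not pass. The 1 fall makes up 20.0% of these 5 collagens, beside 5.79% of all tested genes.

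Of 19 other glycoproteins and proteoglycans 4 fell (21.1%, beside 5.79% of all tested genes) and 2 rose (10.5%, beside 4.11%). CCN1, a matricellular integrin ligand, fell by 0.70, CTHRC1 by 0.60, the thrombospondin family gene THBS3 by 0.55 and the testican SPOCK1 by 0.70 (limma adjusted p 0.0281, 0.0302, 0.0362 and 0.0473). The glypican GPC1 rose by 0.44 and SPP1, osteopontin, by 1.19 (limma adjusted p 0.0482 and 0.0491), both named after their values were seen. Among 18 proteases, inhibitors and crosslinkers, 2 fell (11.1%, beside 5.79% of all tested genes) and 0 rose (beside 4.11%). The protease MMP7 fell by 0.78 and the transglutaminase TGM2 by 0.76 (limma adjusted p 0.0274 for both), and ADAMTS15 (-0.82) and LOXL3 (-0.31) did not pass. Of 14 other genes tied to mesenchymal transition, 2 fell (14.3%, beside 5.79% of all tested genes) and 1 rose (7.14%, beside 4.11%). S100A4 fell by 1.11, the forkhead gene FOXC2 fell by 0.88 and the tropomyosin gene TPM2 rose by 0.94 (limma adjusted p 0.0242, 0.0456 and 0.0273), while TCF3 (-0.48) did not pass. The 14 also take in genes of the epithelial state (ESRP1, OVOL1, OVOL2, GRHL2 and CDH1), none of which was called.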

How the data were processed

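Capan-1 RNA from 3 siGNE and 3 control arrays was measured with 1 Affymetrix array each. The deposited table holds log2 values for 54675 probe sets, normalized by the authors with GCRMA, per the submitters' processing notes. Its version is not given in the sources used here, and the values themselves show the log2 scale. GCRMA models background, so differences near 3 can be understated. Arrays have no read depth, and their number limits precision.

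Of the probe sets, 41097 had 1 gene symbol in the platform annotation, 1801 had several and 11777 had none, and only the first kind named a gene. Symbols were updated by gene ID through RefSeq (GRCh38.p14). Probe sets ending in _x_at are prone to cross-hybridisation and were used only where a gene had no other.

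The main test was limma 3.58.1 in R 4.3.3 (lmFit, eBayes), siGNE minus control, with the title number as a block, which leaves 2 residual degrees of freedom. Benjamini-Hochberg adjustment ran over 22085 probe sets with a mean above 4, without 62 control probe sets, and a call is an adjusted p under 0.05. The deviations of same-number arrays correlated at 0.58, 0.71 and 0.83, above the limit of 0.1 for pairing, and those of different numbers at -0.64 to 0.17. Deviations were taken from each group's mean over 3 arrays, so they sum to 0 within a group. Positive same-number correlations therefore push the others down, and the contrast between them is partly built in. SEs are limma's moderated ones, and intervals are at 95%. In simulated arrays of 22085 probe sets, 100 probe sets were given a 1-unit and 100 a 2-unit log2 change. The same fit called 39% and 84% of these, with 2 false calls. In the real data 2095 probe sets were called, far more than were changed in the simulation. The adjusted threshold therefore differs, and the simulated shares are not the power of the test here.

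Every listed gene is reported. From the 5 further lists, the 4 genes of each with the smallest unadjusted p are named. The listed genes and all lists were chosen with earlier results of these data known. Alternatives were no block, other limits on the mean, a floor, other scaling, other variance priors, averaged probe sets, another threshold and left-out arrays.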

Additional observations from a re-analysis of the deposited data

How the results depend on the processing

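The limits are few arrays and signals near background. Without the replicate block 0 listed genes fell and 0 rose, 0 and 0 of the further matrix genes did, and 9 probe sets passed in all (3223 at an unadjusted p under 0.05), while GNE stayed at -1.88 (limma adjusted p 0.131). With no limit on the mean, these counts and that over all probe sets were 0 (7167 at an unadjusted p under 0.05), the median of the listed genes was -0.035 because 23 genes near background enter it, and GNE was at -1.88 (limma adjusted p 0.265). With a mean above 6, 3318 probe sets passed, with a trended prior 3146 and at an adjusted p under 0.1 4823. Listed genes that rose numbered 2, COL1A1 and COL16A1, with quantile normalization, median centring, averaged probe sets or an adjusted p under 0.1. At that threshold 16 of the 76 further tested genes fell, where 4823 of all 22085 tested probe sets passed in either direction. With a robust prior 3 further genes rose. The cause of these moves was not tested. Counts of listed genes that fell ran from 5 to 9 in the other settings, and the 7 called genes were kept with the floor, quantile normalization, centring, both variance priors, averaged probe sets and the looser threshold. With a mean above 6, 5 of the 7 were called, TNC and COL12A1 being below that limit.

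With single arrays or pairs left out, every count of calls ran from 0 to 0, the median of the listed genes from -0.54 (without the siGNE array of number 1) to -0.25 (without the siGNE array of number 3) and GNE from -2.17 to -1.44. These fits have fewer arrays, so their 0 calls say little about stability. Fits without a single array also lack the block, so levels of the pairs enter their differences. Signs turned for genes that were not called, with ranges of -0.15 to 0.028 for CDH2, -0.15 to 0.064 for COL7A1, -0.14 to 0.28 for COL4A1, -0.22 to 0.44 for COL4A2, -0.17 to 0.059 for HSPG2 and -0.28 to 0.12 for LTBP3. COL4A2 was at -0.067 with values under 4 set to 4. Each of the 7 called genes kept its direction in every setting run.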
